A study of Rattus norvegicus with 18 samples.

Results

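Gene expression in the prefrontal medial cortex was compared with that in the hippocampus of rats from a pair of strains bred for opposite ethanol preference, WHP with high and WLP with low preference. The comparison is between brain areas and not between strains, and it uses 12 of the 18 arrays of the study, namely the 6 titled as prefrontal and the 6 titled as hippocampal, which hold 12 of its 18 RNA pools. The rats were alcohol-naive males killed by decapitation, and no group received an agent. Each pool held equal amounts of RNA from 3 rats of 1 strain. Every array carried a WHP pool in one dye and a WLP pool in the other, and a second array repeated the pair with the dyes swapped, so that each pool has 2 readings. Each area therefore had 6 pools, 3 of WHP and 3 of WLP. The remaining 6 arrays measured the nucleus accumbens, which belongs to the ventral striatum, and serve below as a reference level. Pools rather than single rats are the unit, and the p-values measure only the spread between these pools. Whether 1 set of rats gave tissue for both areas is not stated.

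The prefrontal medial cortex is layered neocortex, built of pyramidal neurons with local inhibitory interneurons, and takes part in planning and in the control of choice. The hippocampus holds the granule cells of the dentate gyrus and the pyramidal cells of the CA fields, and is known for its part in memory and for its dense corticosteroid receptors. Tissue RNA mixes all cells of a sample, so a lower level can come from fewer cells of a type or from less RNA per cell, and these cannot be told apart here.

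Values are log2 spot intensities, in which 1 unit is a 2-fold step, and differences are prefrontal minus hippocampus with the standard error of the limma fit. Each probe is a 60-base oligonucleotide, and levels of different probes are not set against each other. Because the results turn on what single probes read, the first 30 bases of 7 probes are shown, 5′ to 3′ as in the deposited scanner files, with G and C in capitals, for the gene with the largest difference among those whose pools did not overlap, for a gene whose probes went opposite ways and for a pair of genes whose probes went the same way by different or like amounts.
Klk8, difference -5.61: GaaaCCtGaGaaaCCCGGaGtCtaCaCCaa
Mapk8ip3, difference -2.44: atGtCttCCCCCtGGCtGatGGaatGtGtC
Mapk8ip3, difference 1.68: CattGaCttCCGCatCGGGGatGGaGaGGa
Rab15, difference 3.38: atGGGCGCCGCGaGGCGtCCaGtGCGGtaa
Rab15, difference 0.85: aGaaGGCGtCCaGaaGatCCtCatCGGGaa
Pkp2, difference -2.71: tGtGGGtGCtCatCGGaGGaatCtGaGGaa
Pkp2, difference -2.81: CGGaatCtttCtCtGCaGaatGaaattGCt
On the rn4 build of the files the Klk8 probe lies at chr1:94233905-94233964 on the plus strand. The Mapk8ip3 probes lie at chr10:14163671-14167270 and chr10:14147974-14148105, both on the minus strand. The Rab15 probes lie at chr6:99403097-99403156 and chr6:99382873-99382932 on the minus strand, and the Pkp2 probes at chr11:86584291-86584350 and chr11:86574814-86576477 on the plus strand. Exons and introns were not assigned, since no annotation of that build was used here.

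The areas were scanned apart. The prefrontal arrays shared slides 1 to 3 and the first scan session with the nucleus accumbens, and the hippocampal arrays lay on slides 4 and 5 of the second session. Median green signal was 81.4 to 98.2 on the prefrontal and 154.9 to 208.7 on the hippocampal arrays, and 28670 to 30768 against 34149 to 38080 green spots were well above background. The spike-in controls, added RNA that does not depend on the tissue, had median green signals of 804 to 1142 against 1731 to 2209. Area and scan session cannot be told apart by any fit to these 2 areas. For that reason the nucleus accumbens level, from all 18 arrays normalised together, is given beside the main genes. Over all probes it was nearer to the prefrontal than to the hippocampal level for 72.4%, and these areas share slides and session, so nearness to prefrontal medial cortex in a single gene is the common case.

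**Figure D1:**
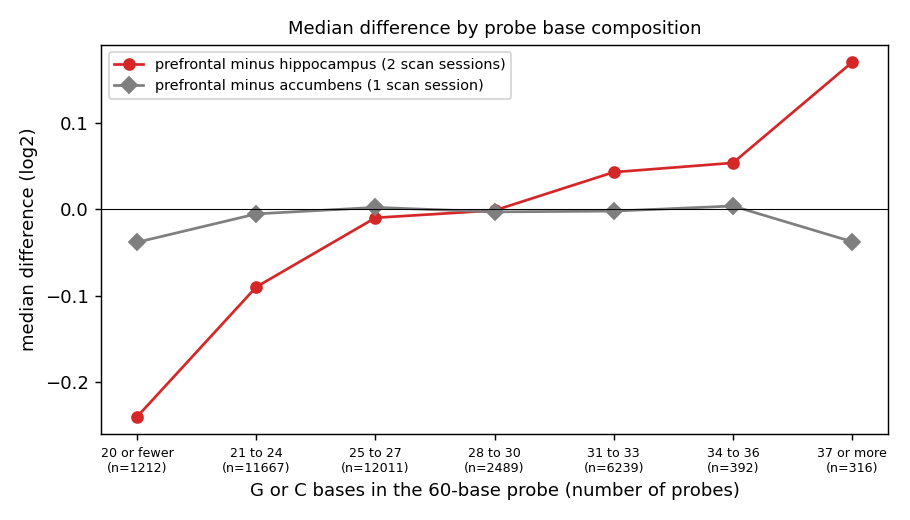
Median log2 difference (vertical axis) of probes grouped by the number of G or C among their 60 bases (horizontal axis, with the number of probes), for prefrontal minus hippocampus and for prefrontal minus nucleus accumbens. The first runs from -0.24 in probes with 20 or fewer to 0.17 in probes with 37 or more, and the second lies between -0.04 and 0.00 in every bin.

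The area difference also moved with the base composition of the probe. Its median was -0.24 over the 1212 probes with 20 or fewer G or C bases and 0.17 over the 316 probes with 37 or more, while the prefrontal minus accumbens medians of the same bins were -0.04 and -0.04. In the highest bin 15.5% of probes were called at least 2-fold higher in prefrontal medial cortex, against 0.83% in the lowest. The part that session and base composition have in single gene differences was not tested, and Rab15, whose leading probe holds 44 G or C bases, lies in the highest bin.

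Of 34326 probes tested, 11789 (34.3%) were higher in prefrontal medial cortex and 13615 (39.7%) in hippocampus at an adjusted p under 0.05. At least 2-fold differences were called for 1094 probes (3.19%) higher in prefrontal medial cortex and 856 (2.49%) higher in hippocampus. With 1 probe per gene, the brightest, 4934 of 14512 genes (34%) were higher in prefrontal medial cortex and 5898 (40.6%) in hippocampus, and 534 (3.68%) and 405 (2.79%) of them at least 2-fold. The median difference over all genes was -0.04. Calls higher in prefrontal medial cortex were 46.4% of all calls, but 36.1% with each channel scaled to its median and 34.7% with the scanner's own processed signals, which also moved the median over all probes from -0.03 to -0.25. They were 52.4% among probes well above background in both areas (11196 against 10162 probes). With each pool centred by probe GC count they were 50.9%. Which area had more calls thus depended on the filter and the processing. In a simulation of these 34326 probes the area test called 59 of 68 probes given a true difference of 0.5, all 66 given a difference of 1 and 17 of the probes given none. Few probes were changed there and no difference between scan sessions was simulated. These counts therefore do not carry over to the calls made in most probes here. Pools of the same area correlated at 0.993 to 0.998 over probes, and pools of different areas at 0.963 to 0.974. With nearly 3 in 4 genes called (74.6%), a call alone says little. The pools of the areas did not overlap for 20110 of the 34326 probes (58.6%), so separation is the common case too. Sizes and pool ranges are given below, and the leading genes were chosen in part by separate pools.

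**Figure D2:**
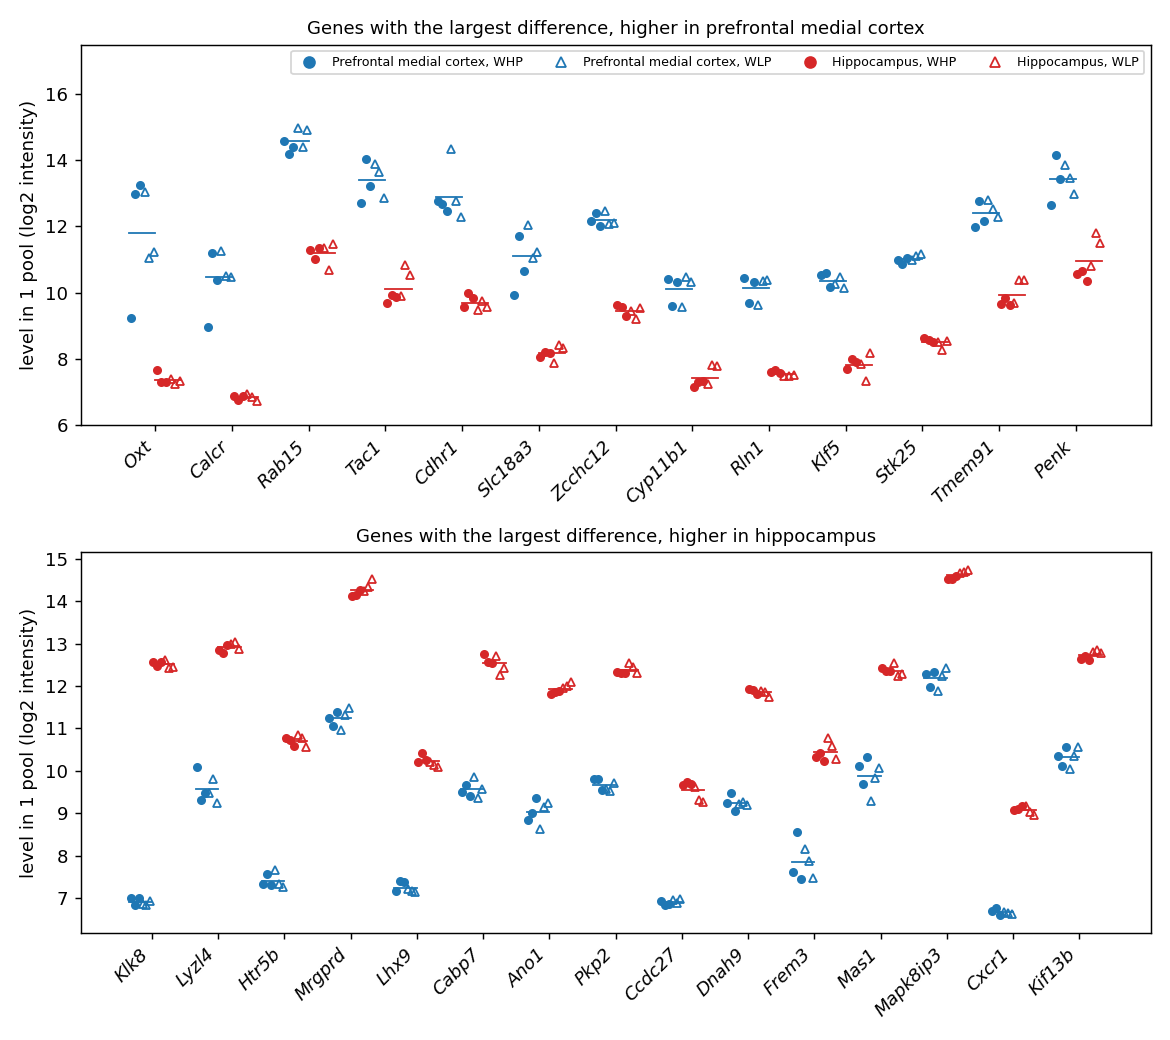
Level of each pool (log2 intensity) for the genes with the largest difference in each direction, prefrontal medial cortex in blue and hippocampus in red, WHP as filled circles, WLP as open triangles, and the bar at the mean of 6 pools. The areas do not overlap for any gene shown, which the rule that chose them required, and Oxt spreads over the widest range among prefrontal pools, 9.22 to 13.26.

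The largest called difference among genes whose pools did not overlap was that of Klk8, a secreted serine protease also known as neuropsin. Its level was 6.83, 6.89 and 7.0015 (lowest, median and highest pool) in prefrontal medial cortex and 12.42, 12.51 and 12.61 in hippocampus, a difference of -5.61 ± 0.05 (SE, 6 against 6 pools, adjusted p = 1.73e-15). The prefrontal level was at the edge of detection, with 6 of 12 readings well above background, so the size is not exact and ran from -5.55 to -7.93 over the alternatives run, and the nucleus accumbens level was 6.52.

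Receptors and channels made up several of the other genes higher in hippocampus. Htr5b, a serotonin receptor, stood at 7.26, 7.32 and 7.67 in prefrontal medial cortex and at 10.57, 10.75 and 10.85 in hippocampus (difference -3.30 ± 0.09, adjusted p = 1.04e-10). Mas1, a receptor for a short angiotensin peptide, stood at 9.28, 9.95 and 10.32 against 12.23, 12.35 and 12.55 (-2.48 ± 0.16, adjusted p = 2.92e-08). In neither gene did any prefrontal pool reach the lowest hippocampal pool, which the rule that chose them required. The accumbens levels were 7.65 and 7.64. The related receptor Mrgprd differed by -3.03 ± 0.10 and the calcium-activated chloride channel Ano1 by -2.90 ± 0.11, both with accumbens levels within 0.4 of the prefrontal ones (10.89 against 10.9965, and 8.49 against 8.83). Cxcr1, a chemokine receptor, was not well above background in any prefrontal reading and was well above it in all 12 hippocampal ones. Its probe thus entered the test through hippocampus alone, where its pools stood at 8.95 to 9.17. With each array's lowest signal well above background as the limit, it was at least 5.22-fold higher in hippocampus in the main processing. Its difference of -2.42 ran from -2.32 to -5.99 over the alternatives run, so the size is not exact.

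Pkp2, plakophilin of desmosomal junctions, stood at 9.52, 9.63 and 9.81 against 12.30, 12.31 and 12.54 (-2.71 ± 0.08, adjusted p = 1.82e-10), and both of its probes shown above differed by like amounts. Its desmosomal partner Dsp, desmoplakin, differed by -1.44 ± 0.10 (adjusted p = 6.78e-08). Among transcription and transport genes, Lhx9, a LIM homeobox factor, differed by -2.98 ± 0.06 but its other probe by -0.46, and Cabp7, a calcium-binding protein, by -2.98 ± 0.11 against -0.83. Lhx9 is also the lowest member on the list of thalamus, hypothalamus and septum markers. Kif13b, a kinesin motor, differed by -2.40 ± 0.10 and Dnah9, a dynein chain of motile cilia, by -2.62 ± 0.07. Lyzl4 (-3.35 ± 0.15), Ccdc27 (-2.65 ± 0.09, with 6 of 12 prefrontal readings well above background and -2.47 to -5.06 over the alternatives run) and the matrix protein gene Frem3 (-2.58 ± 0.20) complete the 15 genes together with Mapk8ip3, an adaptor between kinesin and JNK signalling. Mapk8ip3 is the 1 gene of the 3674 with several probes whose probes were called at least 2-fold in opposite directions, -2.44 ± 0.10 on the brighter and 1.68 on the other, so its direction is unsettled.

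The genes highest in prefrontal medial cortex against hippocampus were led by Oxt, the precursor of oxytocin. Oxt stood at 9.22, 12.11 and 13.26 in prefrontal pools and at 7.24, 7.31 and 7.65 in hippocampal ones, a difference of 4.43 ± 0.74 (adjusted p = 0.00014). The areas did not overlap, which the rule that chose Oxt required. Prefrontal pools of the same strain lay far apart (9.22 in WHP of pool pair 1 and 13.26 in WHP of pair 3), and the accumbens level was higher still, 14.18. Avp, the precursor of vasopressin, showed the same spread, 9.37, 11.37 and 13.29 against 8.99, 9.05 and 9.26 (2.07 ± 0.58, adjusted p = 0.00603), with an accumbens level of 14.04. Oxytocin and vasopressin are made by neurons of the hypothalamus, and of the 17 markers of thalamus, hypothalamus and septum 7 were higher in prefrontal medial cortex and 5 in hippocampus, beside 34% and 40.6% of all genes. With median scaling of each channel neither Oxt nor Avp passed the test.

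Calcr, the calcitonin receptor, stood at 8.95, 10.49 and 11.27 against 6.74, 6.85 and 6.93 (3.63 ± 0.37, adjusted p = 1.83e-06). Slc18a3, the vesicular acetylcholine transporter of cholinergic neurons, stood at 9.94, 11.15 and 12.04 against 7.86, 8.19 and 8.42 (2.94 ± 0.33, adjusted p = 4.94e-06) and did not pass with median scaling. Neither overlapped between areas, which the rule that chose them required. Both had higher levels in nucleus accumbens (11.78 and 12.25) than in prefrontal medial cortex on the 18-array scale (10.23 and 10.87). Rab15, a small GTPase of endosomes, Cdhr1, a cadherin-related protein of photoreceptors, and Tmem91 had accumbens levels of 15.94, 12.46 and 12.79 beside prefrontal ones of 14.35, 12.64 and 12.17.

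A pair of the leading genes had accumbens levels nearer to the hippocampal than to the prefrontal ones. Cyp11b1, which makes corticosterone in the adrenal cortex, stood at 9.57, 10.32 and 10.47 in prefrontal pools and 7.14, 7.31 and 7.81 in hippocampal ones (2.69 ± 0.22, adjusted p = 2.79e-07). Rln1, which encodes relaxin, stood at 9.63, 10.33 and 10.43 against 7.48, 7.54 and 7.67 (2.58 ± 0.17, adjusted p = 4.54e-08). Their accumbens levels, measured on the same slides as the prefrontal pools, were 7.34 and 8.21, on a scale where hippocampus stood at 7.24 and 7.37. The transcription factor Klf5 (2.54 ± 0.15, other probe 0.66), the kinase Stk25 (2.53 ± 0.08) and the coactivator Zcchc12 (2.76 ± 0.11) had accumbens levels of 9.53, 9.97 and 11.93 beside prefrontal ones of 10.13, 10.78 and 11.95.

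**Figure D3:**
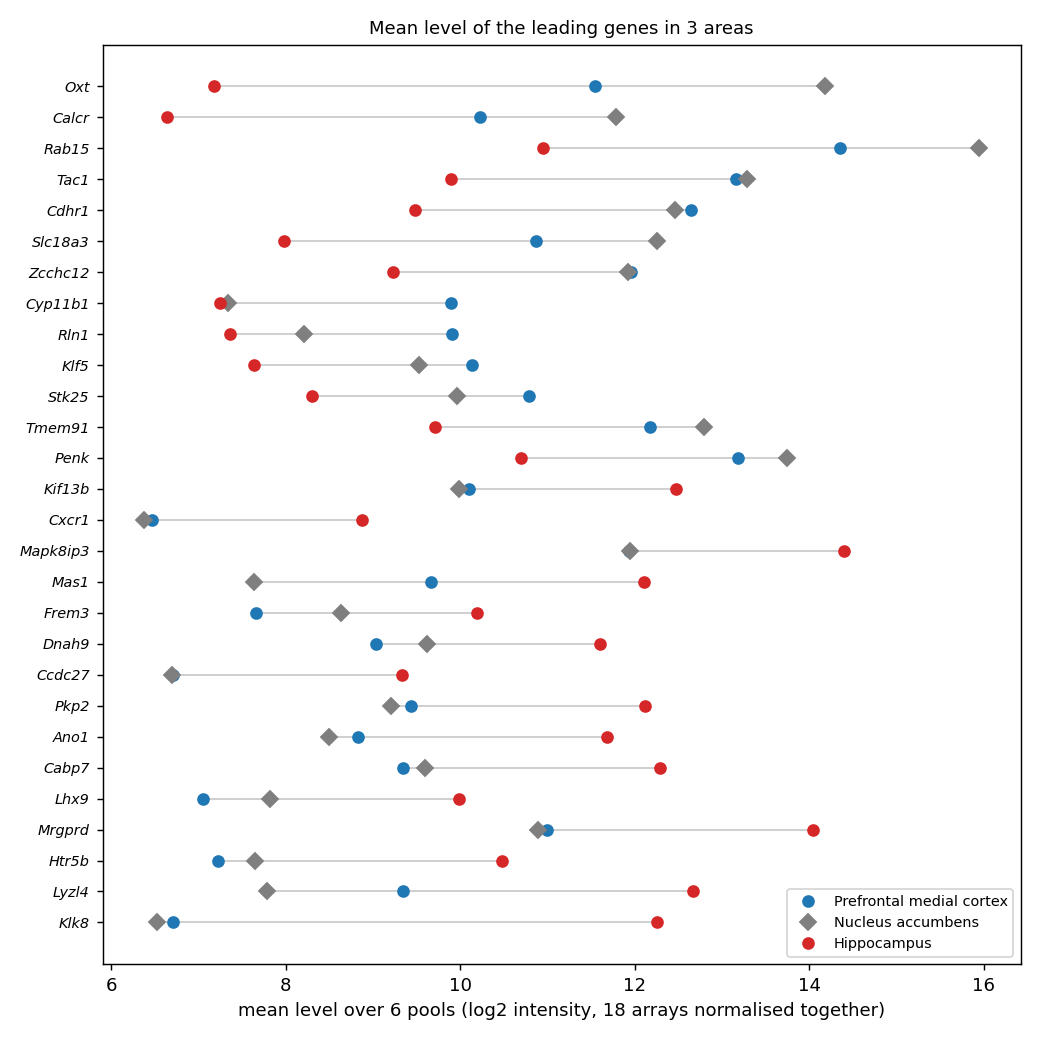
Mean level over 6 pools (log2 intensity, all 18 arrays normalised together) of the same genes in prefrontal medial cortex, nucleus accumbens and hippocampus. Cyp11b1 and Rln1 have accumbens levels (7.34 and 8.21) nearer to hippocampus than to prefrontal medial cortex, and Klk8 is low in both other areas (6.71 and 6.52 against 12.26).

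The labelled areas were checked against marker lists. Counts of called members, in these and other lists, stand beside 34% of all genes higher in prefrontal medial cortex and 40.6% in hippocampus. The pools labelled prefrontal medial cortex carried cortical markers that the accumbens pools had at lower levels, such as Fezf2, a factor of deep-layer projection neurons (10.93 against 8.03), Neurod6, a factor of excitatory forebrain neurons (11.03 against 7.9975), and Lamp5, an upper-layer marker (10.64 against 9.11). Over the whole lists the median prefrontal minus accumbens difference was 0.21 for upper-layer and 0.26 for deep-layer markers. The upper-layer level overlapped, at 8.24 to 9.01 over prefrontal and 8.14 to 8.65 over accumbens pools, and Cux1, an upper-layer factor, stood at 10.13 against 10.23. The prefrontal pools also carried striatal markers at accumbens level. The median level of the 25 striatal markers was 9.18 to 10.54 over prefrontal pools, 9.40 to 10.59 over accumbens pools and 8.18 to 8.65 over hippocampal pools. What part tissue from the striatum had in the prefrontal levels was not tested.

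**Figure D4:**
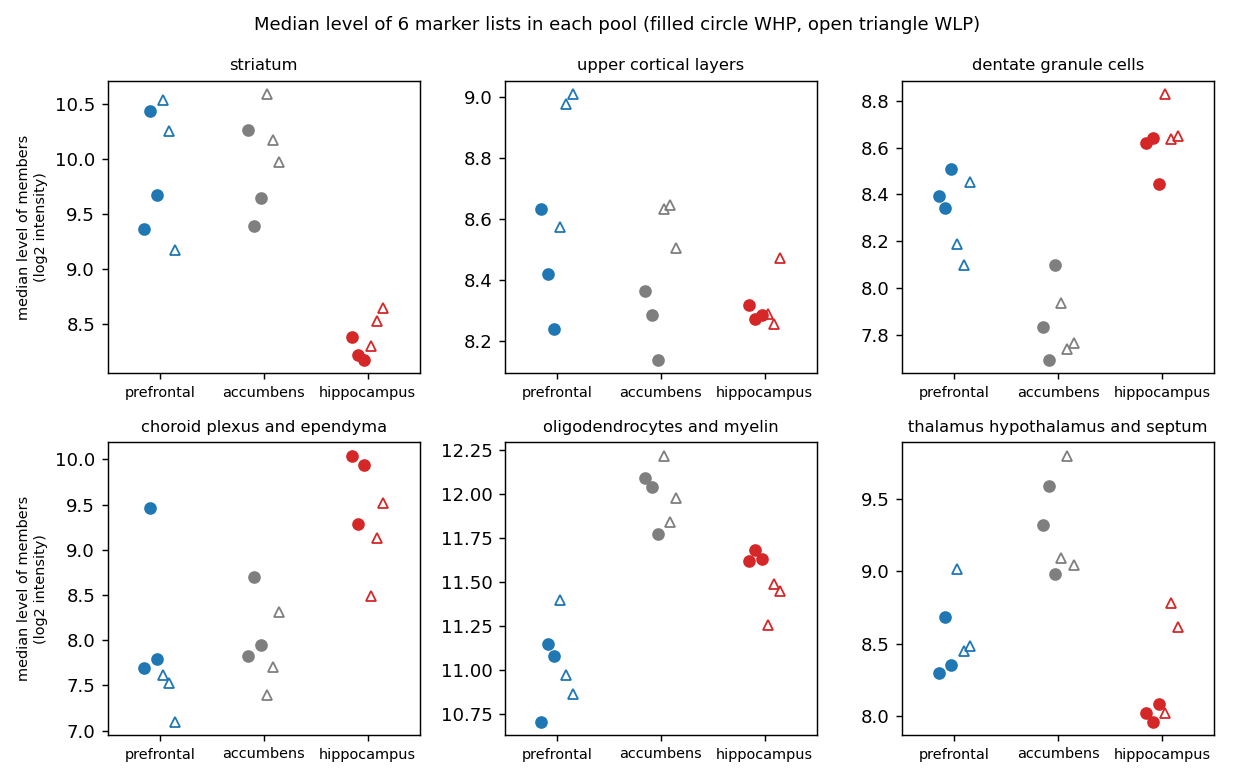
Median level (log2 intensity) over the members of 6 marker lists in each pool of 3 areas, WHP as filled circles and WLP as open triangles. The striatal list lies at 9.18 to 10.54 in prefrontal pools, like the accumbens pools, and 1 prefrontal pool (WHP of pair 2) stands at 9.46 on the choroid plexus list where the other 5 reach at most 7.79.

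Markers of striatal neurons had the highest median of the 34 lists: 20 of 25 were higher in prefrontal medial cortex, 14 of them at least 2-fold, 1 was higher in hippocampus and 4 were not called, and the median difference was 1.32 against -0.04 over all genes. Tac1, the substance P precursor of the direct pathway, stood at 12.72, 13.45 and 14.04 against 9.68, 9.91 and 10.83 (3.28 ± 0.28, adjusted p = 3.53e-07). Its areas did not overlap, which the rule for the leading genes required. Its prefrontal and accumbens levels were close, 13.16 and 13.28. Drd1, the D1-type dopamine receptor, was higher in prefrontal medial cortex, but was well above background in 1 of 12 hippocampal readings, and the size of its difference ran from 1.26 to 4.27 over the alternatives run. The probe of Drd2, the D2-type receptor of the indirect pathway, stood at 7.58 to 7.98 against 7.83 to 7.87 (-0.06 ± 0.07, adjusted p = 0.48). On the 18-array scale its levels were close, at 7.73 in nucleus accumbens, 7.61 in prefrontal medial cortex and 7.66 in hippocampus. Meis2, a homeobox factor, differed by 2.08 and 2.17 on its probes, and Adora2a, the adenosine receptor of indirect-pathway neurons, by 2.05 and 1.62. Penk, the enkephalin precursor, differed by 2.49 ± 0.32 on the brighter probe and by -0.02 on the other. Adora2a and Penk did not pass with median scaling.

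Neuropeptide precursors shared this direction, with 16 of 23 higher in prefrontal medial cortex (9 at least 2-fold), 3 higher in hippocampus and a median of 0.79. Tac1 is counted both here and among the striatal markers. Cartpt, the CART precursor, differed by 1.79 ± 0.37, Grp, the gastrin-releasing peptide, by 1.65 ± 0.22 and Vip, a peptide of cortical interneurons, by 1.30 ± 0.22, and none of these 3 passed with median scaling. Vip and Cck stood higher in prefrontal medial cortex than in nucleus accumbens (13.10 against 10.60 and 15.55 against 13.18), unlike Tac1. Nts, the neurotensin precursor, was higher in hippocampus on both probes, -1.22 and -1.33. Of 28 peptide receptors 15 were higher in prefrontal medial cortex and 7 in hippocampus, with a median of 0.19. Their median level overlapped, at 7.78 to 8.17 over prefrontal and 8.01 to 8.10 over hippocampal pools. The middle of these pools, 7.87 against 8.05, went the other way, so the direction of this list is unsettled. Cckbr, the brain receptor for cholecystokinin, stood at 10.70, 11.11 and 11.64 against 9.06, 9.27 and 9.48 (1.87 ± 0.16, adjusted p = 3.66e-07), and Crhr1, a receptor for the stress peptide CRH, at 9.90, 10.14 and 10.20 against 8.39, 8.64 and 9.18 (1.39 ± 0.11, adjusted p = 1.61e-07). Both ranges were separate, and Cckbr did not pass with median scaling.

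Interneuron markers had 15 of 23 members higher in prefrontal medial cortex, 3 higher in hippocampus and a median of 0.45. The median level over these markers overlapped, at 10.96 to 11.56 over prefrontal and 10.89 to 11.13 over hippocampal pools. Gad1, which makes GABA, differed by 1.47, 1.22 and 1.12 on its probes, and Slc32a1, which loads GABA into vesicles, by 1.46 ± 0.20, neither passing with median scaling. Their accumbens levels, 11.38 and 13.51, lay above the prefrontal ones of 11.20 and 12.51. GABA is the transmitter of striatal projection neurons too. Sst, the somatostatin precursor, was at 14.30, 14.66 and 14.82 against 13.26, 13.70 and 14.02 (0.93 ± 0.13, adjusted p = 4.01e-05), and Pvalb, of fast-spiking interneurons, went the other way (-0.43 ± 0.15, adjusted p = 0.0174) with overlapping pools.

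Upper-layer cortical markers were higher in prefrontal medial cortex for 8 of 11 members and in hippocampus for 1, with a median of 0.43. Their median level overlapped, at 8.24 to 9.01 over prefrontal and 8.26 to 8.47 over hippocampal pools. Lamp5 stood at 10.58, 10.83 and 11.30 against 9.03, 9.18 and 9.29 (1.72 ± 0.12, adjusted p = 4.84e-08). Its areas did not overlap. Nectin3, an adhesion molecule, was the member higher in hippocampus (-1.07 ± 0.11), though its other probe differed by -0.01. Of the deep-layer markers 6 of 14 were higher in prefrontal medial cortex and 3 in hippocampus, beside 34% and 40.6% of all genes. Their median difference of 0.15 turned to -0.09 with median scaling. The median level over these markers went the other way, at 8.51 to 8.71 over prefrontal and 8.79 to 8.98 over hippocampal pools. The direction of this list is thus unsettled. Fezf2 did not differ beyond its spread (0.33 ± 0.18, adjusted p = 0.119), at 10.64 to 11.58 against 10.72 to 11.02.

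Markers of hippocampal neurons went the opposite way. Of 11 dentate granule cell markers 8 were higher in hippocampus, 4 of them at least 2-fold, and 2 in prefrontal medial cortex, with a median of -0.66. Their median level overlapped in part, at 8.10 to 8.51 over prefrontal and 8.45 to 8.83 over hippocampal pools. C1ql2, a synaptic organiser of mossy fibres, stood at 8.98, 9.21 and 9.48 against 10.75, 10.90 and 11.06 (-1.69 ± 0.09, adjusted p = 6.9e-09), and Cdh9, a cadherin of the same synapses, at 8.29, 8.56 and 8.71 against 9.99, 10.24 and 10.43 (-1.71 ± 0.09, adjusted p = 1.03e-08). Both were separate in all 12 pools. Prox1, the factor that defines granule cells, was not well above background in any prefrontal reading and was in 11 of 12 hippocampal ones, at 6.62 to 6.75, so its probe gives little size (-0.17 ± 0.04). C1ql3 did not pass (0.06 ± 0.18, adjusted p = 0.759).

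Of 17 CA field markers 10 were higher in hippocampus, 5 at least 2-fold, and 3 in prefrontal medial cortex, with a median of -0.43. Nr3c2, given below among the corticosteroid genes, is the lowest member of this list too. The median level over these markers overlapped, at 8.51 to 9.26 over prefrontal and 9.00 to 9.25 over hippocampal pools. Over accumbens pools it was 9.21 to 9.58. Cpne4, a copine, stood at 11.41, 11.97 and 12.14 against 13.20, 13.61 and 13.73 (-1.71 ± 0.15, adjusted p = 5.69e-07) and differed by -1.60 on its other probe. Homer3, a postsynaptic scaffold, stood at 7.38, 7.49 and 7.56 against 8.51, 8.57 and 8.77 (-1.11 ± 0.06, adjusted p = 4.98e-09), and Grik4, a kainate receptor subunit of CA3 neurons, differed by -0.79 ± 0.08. Wfs1, often used to mark CA1, was higher in prefrontal medial cortex (0.36 ± 0.08, adjusted p = 0.00122).

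Of the 12 corticosteroid and stress genes 8 were higher in hippocampus and 3 in prefrontal medial cortex, with a median of -0.46. Nr3c2, the mineralocorticoid receptor, stood at 10.54, 10.75 and 10.86 against 12.85, 12.93 and 13.12 (-2.22 ± 0.06, adjusted p = 1.17e-10), a 4.65-fold difference with no overlap, but its other probe differed by 0.04 (adjusted p = 0.412). Nr3c1, the glucocorticoid receptor, stood at 10.9998, 11.07 and 11.28 against 11.87, 11.92 and 11.95 (-0.80 ± 0.05, adjusted p = 5.07e-08), and its other probes differed by -0.87 and -0.77. The receptor's chaperone partner Fkbp5 differed by -1.03 ± 0.05 on the brightest probe and by 0.17 and -0.17 on the others. The steroid-induced kinase Sgk1 differed by -0.99 ± 0.22 with overlapping pools and did not pass with median scaling.

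Of 33 forebrain transcription factors 10 were higher in prefrontal medial cortex and 14 in hippocampus, shares near those of all genes (34% and 40.6%). Neurod6 stood at 10.66, 11.44 and 11.81 against 13.25, 13.42 and 13.51 (-2.12 ± 0.21, adjusted p = 1.25e-06), and the related Neurod1, a factor of granule cells, at 8.90, 9.38 and 9.62 against 11.06, 11.18 and 11.33 (-1.87 ± 0.12, adjusted p = 2.58e-08). Emx2 (-1.16 ± 0.07) and Lhx2 (-1.08 ± 0.11), which pattern the developing medial pallium, were on the same side, each without overlap. Id2, a repressor of basic helix-loop-helix factors, was higher in prefrontal medial cortex on both probes (1.38 and 1.11) but did not pass with median scaling, and Lmo4, a LIM-only cofactor, differed by 1.07 ± 0.17.

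Immediate early genes, which neurons switch on within minutes of activity, were mostly higher in prefrontal medial cortex, 11 of 16 there and 2 in hippocampus, with a median of 0.70. The median level over these genes overlapped, at 10.04 to 11.22 over prefrontal and 10.27 to 10.59 over hippocampal pools. Fos stood at 9.55, 10.55 and 10.91 against 7.93, 8.11 and 8.47 (2.26 ± 0.22, adjusted p = 1.22e-06), and Egr2 at 10.01, 10.81 and 11.49 against 8.42, 8.93 and 9.49 (1.83 ± 0.31, adjusted p = 0.000136). Fos and Egr2 pools were separate, those of Nr4a1 (1.12 ± 0.28) and Arc (1.06 ± 0.31) overlapped, and Egr2, Egr4 (1.49 ± 0.20) and Nr4a1 did not pass with median scaling. Accumbens levels, from the same slides as the prefrontal ones, were lower: 9.35 against 10.17 for Fos, 7.99 against 10.53 for Egr2 and 10.85 against 13.50 for Arc. Nr4a3 (-1.09 ± 0.19, adjusted p = 0.000196) and Egr3 (-0.49 ± 0.05, adjusted p = 2e-06) were higher in hippocampus in all pools, and the other Nr4a3 probes differed by -0.53 and -0.17.

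The promoters of these genes were searched for the cyclic AMP response element TGACGTCA, whose letters read the same on both strands. RefSeq promoters on GRCr8 matched 11 of the 16 genes (not Fos, Jun, Arc, Egr3 or Nr4a3, so neither gene higher in hippocampus was searched), and 3 of the 11 held the element within 250 bases before the start, against 531 of 33469 promoters (1.59%). The shorter letters TGACG, which the element contains, were in 8 of the 11 on either strand, against 18.2% of all promoters. The windows are shown with the element in capitals, to let the spacing from the start be seen, 124, 66 and 201 bases.
Dusp1, chr10:17184709-17184756 plus strand: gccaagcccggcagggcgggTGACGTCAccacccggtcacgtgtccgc
Ier2, chr19:40399287-40399334 plus strand: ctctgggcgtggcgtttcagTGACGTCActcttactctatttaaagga
Btg2, chr13:48087864-48087911 minus strand: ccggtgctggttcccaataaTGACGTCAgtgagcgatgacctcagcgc
Dusp1, a phosphatase of MAP kinases, differed by 0.99, Ier2 by 0.65 and Btg2, an antiproliferative gene, by 0.51. A match is a description of these letters and not of binding.

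Receptors for the main transmitters differed member by member. Of 16 GABA receptor subunits 8 were higher in prefrontal medial cortex and 2 in hippocampus. Gabra3 stood at 8.61, 8.71 and 8.82 against 6.96, 7.08 and 7.28 (1.63 ± 0.06, adjusted p = 5.73e-10), and Gabra5, the subunit of extrasynaptic receptors of pyramidal cells, at 8.79, 8.93 and 9.01 against 9.76, 10.01 and 10.19 (-1.08 ± 0.08, adjusted p = 1.08e-07). These alpha subunits were separate between areas in opposite directions. Gabrd (1.14 ± 0.14), a subunit of extrasynaptic receptors too, was higher in prefrontal medial cortex but did not pass with median scaling.

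Among 18 ionotropic glutamate receptor subunits 9 were higher in prefrontal medial cortex and 6 in hippocampus, beside 34% and 40.6% of all genes. The kainate subunits Grik5 (1.13 ± 0.09) and Grik2 (1.05 ± 0.13) were higher in prefrontal medial cortex and the NMDA subunit Grin2a in hippocampus (-0.85 and -1.56 on its probes), none of the 3 passing with median scaling. Grin3a, a modulatory NMDA subunit, stood at 7.48, 7.54 and 7.67 against 6.58, 6.65 and 6.72 (0.90 ± 0.05, adjusted p = 4.86e-09), with 7 of 12 hippocampal readings well above background, and the size ran from 0.88 to 2.64 over the alternatives run. Of 7 metabotropic receptors 4 were higher in prefrontal medial cortex and 1 in hippocampus. Grm8, a presynaptic autoreceptor, stood at 9.55, 9.80 and 10.11 against 7.42, 8.05 and 8.29 (1.82 ± 0.15, adjusted p = 2.74e-07; other probe 1.77), and Grm5 differed by 0.88 and 0.93.

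Of 16 dopamine and serotonin receptors that entered, 5 were higher in prefrontal medial cortex and 4 in hippocampus, beside 34% and 40.6% of all genes. Htr2a, the main excitatory serotonin receptor of cortex, stood at 8.21, 8.41 and 8.72 against 6.77, 6.98 and 7.05 (1.46 ± 0.08, adjusted p = 6.46e-09), without overlap and with 0.87 on its other probe. Among 16 cholinergic, adenosine and cannabinoid receptors 8 were higher in prefrontal medial cortex and 6 in hippocampus, beside the same shares of all genes. Cnr1, the cannabinoid receptor of nerve terminals, was higher in hippocampus, 11.20, 11.61 and 11.83 against 12.66, 12.78 and 12.92 (-1.23 ± 0.10, adjusted p = 3.19e-07), with -0.04 on its other probe. Chrna4, a nicotinic subunit, was higher in prefrontal medial cortex (1.86 ± 0.24), but not with median scaling.

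Of 38 potassium and HCN channel genes 21 were higher in prefrontal medial cortex and 8 in hippocampus, with a median of 0.27. Kcnj4, an inward rectifier, stood at 9.81, 10.07 and 10.17 against 8.58, 8.65 and 8.87 (1.35 ± 0.07, adjusted p = 6.56e-09), and Hcn2, a pacemaker channel, at 8.81, 8.93 and 9.10 against 7.62, 7.73 and 7.81 (1.23 ± 0.05, adjusted p = 1.59e-09). Kcnq3, an M-current subunit, was on the other side at 10.65, 11.02 and 11.20 against 12.47, 12.53 and 12.66 (-1.57 ± 0.10, adjusted p = 2.99e-08). No pool of these 3 genes crossed over, and Kcnj6, a G-protein-gated channel, differed by -1.64 on one probe and -0.08 on the other. Of 27 sodium and calcium channel genes 12 were higher in prefrontal medial cortex and 9 in hippocampus, beside 34% and 40.6% of all genes. Their median of 0.16 turned to -0.27 with median scaling. Scn3b, a sodium channel beta subunit, stood at 14.97, 15.19 and 15.41 against 16.56, 16.75 and 16.88 (-1.53 ± 0.08, adjusted p = 7.31e-09).

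Second-messenger genes gave 13 of 31 members higher in prefrontal medial cortex and 10 in hippocampus, beside 34% and 40.6% of all genes. Rgs4, which shortens G-protein signals, differed by 2.21 and 2.20 on its probes, at 13.96, 14.49 and 14.94 against 11.68, 12.03 and 12.99 (brighter probe, SE 0.28, adjusted p = 1.37e-05), but did not pass with median scaling. The phosphodiesterases Pde1b (1.74 ± 0.09) and Pde2a (1.69 ± 0.09) were higher in prefrontal medial cortex without overlap, with accumbens levels of 10.04 and 9.66 beside 10.36 and 10.54. Ppp3ca, the catalytic subunit of calcineurin, differed by -1.36 ± 0.08 on one probe and by -0.02 on the other.

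Genes of guidance and adhesion shape and keep connections. Of 15 ephrins and Eph receptors 8 were higher in hippocampus, 4 at least 2-fold, and 5 in prefrontal medial cortex, beside 40.6% and 34% of all genes. Epha6 stood at 8.42, 8.50 and 8.63 against 9.94, 10.13 and 10.27 (-1.60 ± 0.07, adjusted p = 1.31e-09; other probe -0.48), and Epha7 differed by -1.09 and -0.86. Of 25 Wnt pathway genes 11 were higher in hippocampus and 7 in prefrontal medial cortex, beside 40.6% and 34% of all genes. The ligand Wnt4 stood at 9.14, 9.49 and 9.78 against 10.77, 11.01 and 11.09 (-1.48 ± 0.10, adjusted p = 5.44e-08), and Rspo2, which strengthens Wnt signals at the receptor, at 7.89, 8.10 and 8.40 against 9.55, 9.63 and 9.77 (-1.54 ± 0.09, adjusted p = 2.2e-08). All 12 pools kept to their side for these genes.

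Of 27 semaphorin, netrin and slit genes 12 were higher in hippocampus and 9 in prefrontal medial cortex, also near the shares of all genes. The secreted Sema3a stood at 8.01, 8.26 and 8.41 against 6.56, 6.70 and 6.78 (1.55 ± 0.07, adjusted p = 2.33e-09), and Sema3f differed by 1.24 ± 0.08. Robo3, a receptor of the slit family, was higher in hippocampus, with a difference of -2.36 ± 0.22 on the brighter probe and -0.46 on the other. Of 11 cadherins 6 were higher in prefrontal medial cortex and 5 in hippocampus, with Cdh7 (1.62 ± 0.14) and Cdh9 at the ends. Their median difference of 0.21 turned to -0.04 with median scaling. Their median level was 9.07 to 9.27 over prefrontal and 9.79 to 10.07 over hippocampal pools, so this list has no settled direction. Of the retinoid genes 4 of 14 were higher on each side, and Aldh1a1, which makes retinoic acid, stood at 9.27, 9.53 and 10.28 against 11.47, 11.68 and 11.81 (-2.01 ± 0.19, adjusted p = 9.08e-07).

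**Figure D5:**
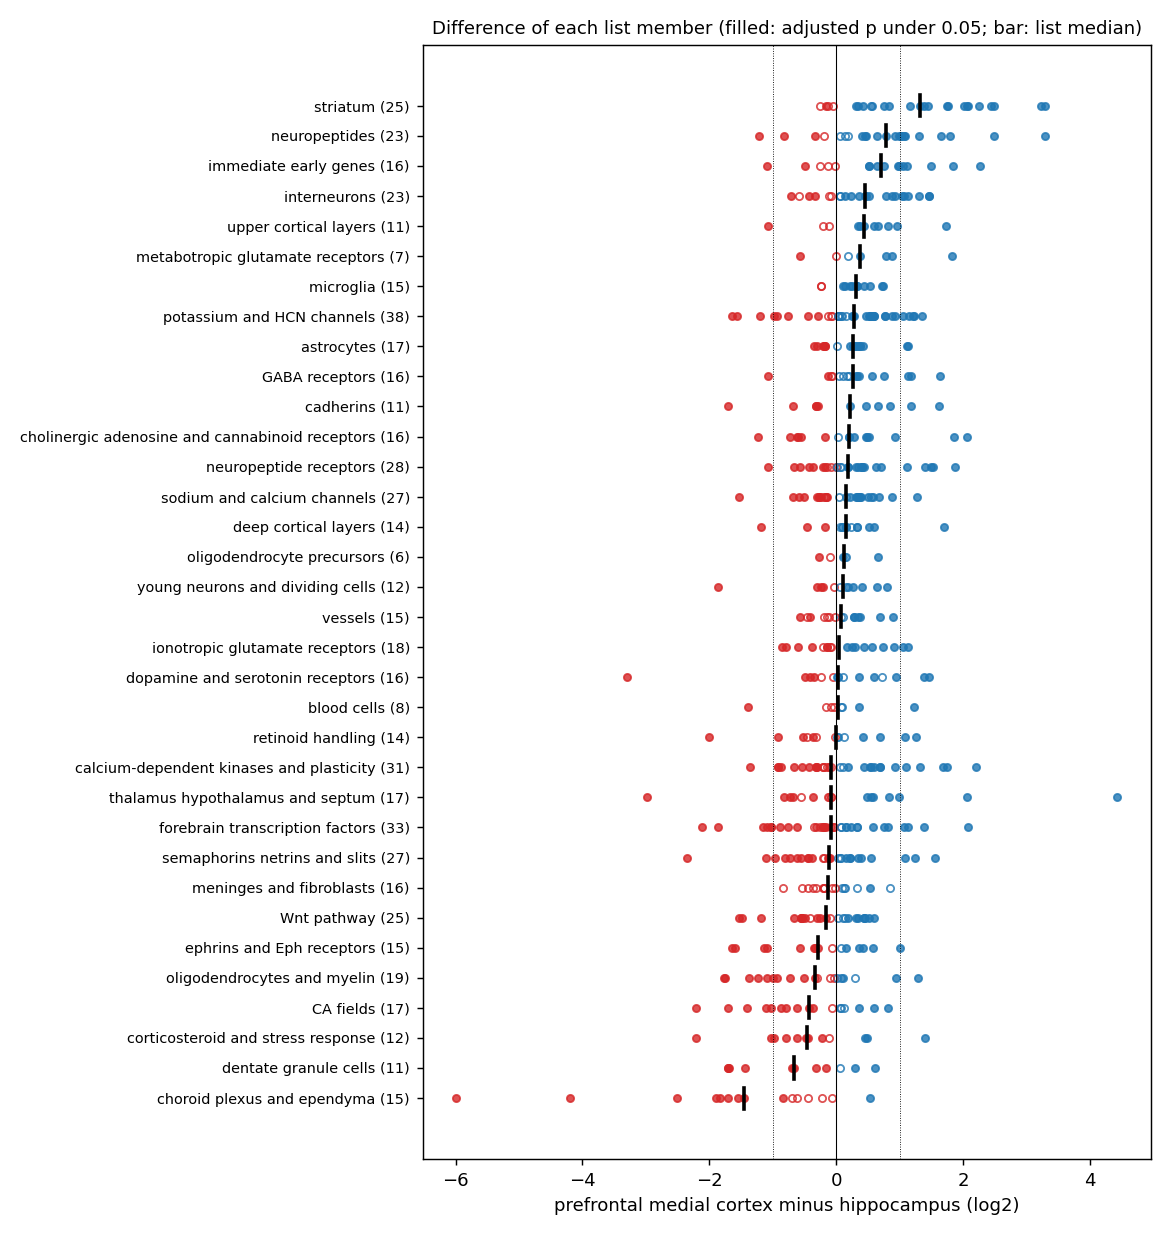
Prefrontal minus hippocampus difference (log2) of each member of 34 gene lists, ordered by the list median (bar), with the number of members tested in parentheses, filled points at an adjusted p under 0.05 and dotted lines at a 2-fold difference. Striatal markers have the highest median (1.32) and choroid plexus and ependyma the lowest (-1.45).

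Markers of glia and vessels gave mostly small differences. Of 15 microglial markers 13 were higher in prefrontal medial cortex, none at least 2-fold and none higher in hippocampus, but the median of 0.31 turned to -0.25 with median scaling. Tmem119 stood at 7.26, 7.33 and 7.36 against 6.74, 6.78 and 6.86 (0.54 ± 0.04, adjusted p = 3.93e-08), and C1qc, a complement subunit, differed by 0.73 and 0.82 without overlap, though it did not pass with median scaling. The astrocyte list gave 9 of 17 higher in prefrontal medial cortex and 5 in hippocampus, with a median of 0.26 that turned to -0.29 with median scaling. The median level over its members overlapped, at 12.23 to 12.82 over prefrontal and 12.31 to 12.63 over hippocampal pools, with middles of 12.34 and 12.54. Of 15 vessel markers 6 were higher in prefrontal medial cortex and 2 in hippocampus, of 6 oligodendrocyte precursor markers 2 and 1, of 12 genes of young neurons and dividing cells 5 and 4, of 8 blood cell markers 2 and 1, and of 16 meningeal markers 1 and 0. Over all genes the shares were 34% and 40.6%. The precursor median of 0.12 turned to -0.08 with median scaling and to -0.06 with the scanner's processed signals.

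Oligodendrocyte and myelin genes were higher in hippocampus for 10 of 19 members, 6 at least 2-fold, and in prefrontal medial cortex for 3, with a median of -0.34. Opalin, a membrane protein of myelinating cells, stood at 11.27, 11.67 and 12.10 against 13.33, 13.44 and 13.62 (-1.75 ± 0.16, adjusted p = 6.8e-07; other probe -0.41), and Aspa, which splits acetylaspartate in oligodendrocytes, differed by -1.38 ± 0.17. Cnp (1.29 ± 0.16) and Mbp (0.95 ± 0.22 and, on the other probe, 0.35), which also serve myelin, were higher in prefrontal medial cortex, so the list did not move as 1, and Cnp did not pass with median scaling. The member Enpp2 (-1.77 ± 0.38), which choroid plexus also expresses, stood at 14.37 in the prefrontal WHP pool of pair 2 and at 12.23 to 12.76 in the other 5, and did not pass with median scaling. The list level was 10.71 to 11.40 over prefrontal pools, 11.26 to 11.68 over hippocampal pools and 11.77 to 12.22 over accumbens pools.

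Choroid plexus and ependymal markers had the lowest median of the lists, -1.45, with 9 of 15 higher in hippocampus, 8 of them at least 2-fold, and 1 in prefrontal medial cortex. Ttr, the transthyretin of choroid plexus, stood at 14.72, 16.69 and 17.79 in hippocampal pools. In prefrontal medial cortex 4 pools lay at 7.80 to 8.22, but the pools of pair 2 stood at 14.12 (WLP) and 18.03 (WHP), the latter above every hippocampal pool. The difference was -6.00 ± 1.65 (adjusted p = 0.00536) and was -8.68 without prefrontal pool pair 2. Sostdc1, a secreted inhibitor made by choroid plexus, likewise stood at 13.02 in the WHP pool of pair 2 and at 7.10 to 7.67 in the other 5, with a difference of -4.20 that became -5.13 without that pair. Neither passed with median scaling, and Ttr did not pass in WHP pools alone. Choroid plexus lines the ventricles beside the hippocampus, and what part its tissue had in the pools was not tested. Tmem212, an ependymal gene, did not follow pair 2 (7.71, 7.93 and 8.69 against 9.63, 10.04 and 10.26, -1.90 ± 0.18, adjusted p = 1.17e-06).

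Several probes per gene give a check within the arrays. Of 3674 genes with at least 2 probes tested, 1203 had all probes called in the same direction. Another 916 had probes called in opposite directions, 1 of them at least 2-fold each way. Of all single probes 34.3% and 39.7% were called each way, which is not a share of genes. How often unrelated probes would be called alike was not computed. The gene counts alone therefore do not show that probes of 1 gene agree. The spread of the difference between probes of 1 gene was 0.42, beside an SD of 0.52 over all probes. For prefrontal minus accumbens these were 0.24 and 0.34. Probes of the same gene thus agreed only in part. There were 52 genes with all probes at least 2-fold in the same direction, 39 higher in prefrontal medial cortex and 13 in hippocampus, singled out after their values were seen. Beside Rgs4, Meis2, Grm8 and Gad1 they include Rasgef1c, an exchange factor of Ras-like proteins (2.03 and 2.44), and Rab3b, a synaptic vesicle GTPase (1.76 and 1.81). In hippocampus they include, beside Pkp2 and Cpne4, Nrip3 (-1.61 and -1.95), Wipf3, an actin regulator (-1.42 and -1.85), and Lpl, lipoprotein lipase (-1.18 and -1.69).

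The area difference was also compared between the strains. At an adjusted p under 0.05 the limma interaction of area and strain was called for 0 of 34326 probes, and 2473 passed an unadjusted p under 0.05. Without prefrontal pool pair 1 it was called for 12 probes and without prefrontal pair 2 for 2. The counts of at least 2-fold probes were 1039 and 847 in WHP pools alone (higher in prefrontal medial cortex and in hippocampus) and 1186 and 893 in WLP pools alone. No simulation of the interaction was run.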

How the data were processed

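RNA of 12 pools was read on 12 two-colour Agilent arrays. Per the file headers, the deposited files hold spot intensities read by Agilent Feature Extraction 10.10.1.1, of which the mean signal and the median local background of each channel were used, before any correction by the scanner's software. The deposited value table was not used. Background was corrected by normexp with an offset of 50 (limma 3.58.1 under R 4.3.3), and signals were normalised by loess within arrays with controls at weight 0 and by Aquantile between the 12 arrays, and cleared of controls and non-uniform spots. The offset shrinks differences of dim probes. Loess balanced the dyes within each array, and Aquantile assumes a like distribution of mean intensities in both areas. Each dye channel was 1 reading, and the 2 readings of a pool were averaged. A probe entered when well above background in at least 8 of 12 readings of an area: 28098 did in prefrontal medial cortex, 34161 in hippocampus and 27933 in both. The fit was limma's lmFit and eBayes with area and strain, two-sided, with the pool pair sharing arrays as a random block (correlation 0.246 by statmod 1.5.0; 9 residual degrees of freedom) and Benjamini-Hochberg adjustment over all probes. It was tested on simulated data that held no difference between scan sessions.

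A gene was named through RefSeq or the file's symbol (21290 probes, 16235 genes) and 19675 probes stayed unnamed. Per gene the brightest probe was taken. Genes were named by a rule: the 15 largest differences each way with separate pools, and up to 4 members past the test in each list. Genes given beyond that rule (Arc, Btg2, Cck, Dusp1, Egr3, Emx2, Grik4, Ier2, Lhx2, Lmo4, Lpl, Mbp, Nr3c1, Nr4a3, Nrip3, Nts, Prox1, Pvalb, Rab3b, Rasgef1c, Sst, Wfs1, Wipf3 and, not called, C1ql3, Drd2 and Fezf2) were chosen after their values were seen, and the alternatives were not run on them. A bound takes the higher of the array's lowest signal well above background and the probe's own. The number of pools limits the precision. The comparison, the gene lists and the rule were chosen with earlier results of these data known. Pool pair numbers were not used to pair the areas in the main fit. Deviations of same-numbered pools correlated at 0.06, 0.13 and -0.14, which cannot show whether the same rats gave both tissues. Alternatives covered normalisation, background, filters, blocks, dyes, strains, probe choice and left-out pool pairs. Results for some genes that the rule picks are not reported here.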

Additional observations from a re-analysis of the deposited data

Results flagged for a closer look

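In 19 of 298 sets of 6 pools looked at (both areas of each named gene), 1 pool stood apart from the other 5 by a Dixon test, where chance gives about 1 in 20, or 14.9. Of the 19 pools, 5 were the WHP pool of prefrontal pair 2 and 5 the WLP pool of hippocampal pair 2, and all levels are log2 intensities.

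In the WHP pool of prefrontal pair 2, Sostdc1 was at 13.02 (others 7.10 to 7.67), Kcnj13 at 11.10 (7.29 to 8.45) and Enpp2 at 14.37 (12.23 to 12.76), all 3 genes of the choroid plexus. In the same pool Dsp was at 7.39 (6.95 to 7.07) and Kcnj4 at 9.81 (10.04 to 10.17). In the WLP pool of hippocampal pair 2, all 5 genes were low: Cpne4 at 13.20 (others 13.54 to 13.73), Slc1a2 at 12.57 (12.82 to 12.88), Csf1r at 8.80 (9.00 to 9.10), Grik2 at 8.21 (8.81 to 8.90) and Kcnj6 at 10.46 (10.96 to 11.08).

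Among the other prefrontal pools, Cdhr1 was at 14.35 (12.28 to 12.78), Rgs5 at 10.71 (10.33 to 10.47) and Ppp3ca at 14.78 (15.11 to 15.27) in WLP of pair 1, Tacr3 at 9.37 (8.68 to 8.79) and Cdh7 at 9.15 (9.24 to 9.28) in WHP of pair 1, and Cacnb2 at 11.69 (11.84 to 11.92) in WLP of pair 3. Among the other hippocampal pools, Oxt was at 7.65 (7.24 to 7.39) and Cux1 at 9.61 (9.32 to 9.42) in WHP of pair 1, and Grm8 at 7.42 (8.01 to 8.29) in WLP of pair 1. Without prefrontal pair 1 the Cdhr1 difference was 2.86, against 3.19 with it.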

How the results depend on the processing

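With each channel scaled to its median, 3615 probes were higher in prefrontal medial cortex and 6412 in hippocampus, 528 and 2169 at least 2-fold. With the scanner's processed signals 2448 and 7715 were at least 2-fold. Without background subtraction 1367 and with an offset of 16 1382 were at least 2-fold higher in hippocampus. With 1 probe per gene, so with fewer tests, the counts were 4962 and 5925, and 534 and 405 at least 2-fold. Leaving out 1 pool pair gave 11024 to 11565 probes higher in prefrontal medial cortex and 12764 to 13366 in hippocampus, 1056 to 1155 and 817 to 907 at least 2-fold, and 0 to 12 strain-dependent ones. Quantile normalisation over single channels gave 1 strain-dependent probe with loess and 1 without. With the pool pair number as a replicate block, 12395 and 14350 probes were called, 1094 and 857 at least 2-fold, and 0 depended on strain. Under median scaling C1qb turned to -0.16 and Slc1a2 to -0.20, and the list medians of astrocytes to -0.29, cadherins -0.037, deep layers -0.088, microglia -0.25, oligodendrocyte precursors -0.084 and sodium and calcium channels -0.27. Under processed signals Olig2 turned to -0.35 and the precursor median to -0.061. The cause of these changes was not tested. Of 149 named genes, 91 kept direction and call under every alternative run. Centring by probe GC and keeping probes with 21 to 36 G or C, chosen after seeing the data, gave 1153 and 1035 probes at least 2-fold higher in prefrontal medial cortex and 716 and 774 in hippocampus. Only 28098 probes were measured well above background in prefrontal medial cortex against 34161 in hippocampus, which limits differences of dim probes.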
